A study of Homo sapiens with 6 samples.

Results

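The genes described here are the 36 genes of the ATF4 branch of the integrated stress response, taken by symbol from the 23062 identifiers of the deposited tables for DU145 cells. DU145 is an androgen-independent prostate cancer cell line, labelled WT, that came from a brain metastasis. Bulk RNA was sequenced from 3 control samples kept in MEM medium and from 3 samples given taraxasterol (TAX), a plant triterpene, for 48 h at the concentration that the labels call its IC50. Each sample gave 1 library, and nothing says whether the replicates came from separate cultures, so p-values measure the spread between these samples only. The study dissolved TAX in DMSO, and whether the control medium held DMSO is not stated, so TAX and its solvent cannot be told apart. All 36 symbols were found. The genes were chosen by symbol, as ATF4 targets of amino acid synthesis, transport and stress, with earlier results of these libraries known, and the FPKM values of the 6 libraries also led to the arrangement of libraries that is described after the comparison with TAX.

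The integrated stress response begins with kinases that phosphorylate the translation factor eIF2 when amino acids, haem or correctly folded proteins run short, or when viral RNA appears. Translation then slows for most mRNAs, while the mRNA of the transcription factor ATF4 is translated more. ATF4 pairs with C/EBP proteins on composite DNA elements and switches on genes for amino acid synthesis, amino acid import and tRNA charging, together with CHOP (DDIT3), which can lead to cell death, and feedback genes that end the response. Because ATF4 is set mainly by translation, the level of its RNA is a poor measure of its protein, and its target genes are the usual RNA readout.

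The deposited values were read as FPKM, in which the fragment count of each gene is scaled to gene length and library depth. The summed FPKM of a library lay between 322483 and 363724, the number of genes listed at 0 lay between 3997 and 4798, and the depth in reads is unknown. Pearson's r of log2(FPKM + 1) between libraries of 1 group, across genes, which are not independent replicates, was 0.991 to 0.995. Control replicate 3 stood apart by its scale, with a median log2(FPKM + 1) of 3.28 over the tested genes against 3.44 to 3.46 in the other 5 libraries, and it was the lowest library for 58.0% of all tested genes. KRT8, KRT18, KRT19, EPCAM and CDH1, markers of epithelial cells, were each at 40.7 FPKM or more in every library. Of 7 markers of blood, endothelial cells and fibroblasts, PTPRC, CD3E, PECAM1, COL3A1 and DCN were at most 0.0755 FPKM in any library, while CD68 lay at 20.011 to 26.7 FPKM in the control and 32.5 to 33.4 FPKM in the TAX libraries and COL1A1 at 1.89 to 2.08 and 1.42 to 1.48 FPKM. By limma the adjusted p of CD68, higher in TAX, was 0.0884 on the deposited scale, 0.0466 after quantile normalization and 0.0444 after median centring, and that of COL1A1, lower in TAX, 0.197, 0.0849 and 0.0728. The part of CD68 and COL1A1 in the results was not tested.

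The best-known DNA sequence of this pathway is the C/EBP-ATF response element, whose core was searched for as TGATGNAA, N being any base, on both strands from 250 bases before to 50 bases after each annotated gene start (RefSeq, GRCh38.p14). Windows were found for 30 of the 36 genes. The core was in at least 1 window of 8 of these 30 genes (26.7%) and of 1217 of all 27305 genes with a window (4.46%). Counted by window it was in 8 of 50 (16.0%) against 3.62% of all windows. A gene with several starts has several windows, and members of this list are in part known for such elements, so the share is a description. The matches in these 8 genes are shown, and the core was not found in the other members with a window. Each has 11 flanking bases on either side (for SLC3A2, where the window ends, 5 bases on the right side). They are written in the direction of the gene, with the matched core, or its reverse complement, in capitals.
ASNS, chr7:97872458-97872487, minus strand: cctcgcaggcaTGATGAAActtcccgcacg
CHAC1, chr15:40953251-40953280, plus strand: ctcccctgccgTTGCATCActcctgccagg
CEBPG, chr19:33374060-33374089, plus strand: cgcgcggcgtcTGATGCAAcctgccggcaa
JDP2, chr14:75427995-75428024, plus strand: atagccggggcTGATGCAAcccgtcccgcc
CARS1, chr11:3057407-3057436, minus strand: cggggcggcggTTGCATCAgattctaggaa
SLC1A5, chr19:46784893-46784922, minus strand: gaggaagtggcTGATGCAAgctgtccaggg
ATF3, chr1:212565205-212565234, plus strand: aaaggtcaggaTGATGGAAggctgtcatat
SLC3A2, chr11:62881725-62881748, plus strand: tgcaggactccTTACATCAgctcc
Counted from an annotated start, the ASNS match lies at -68 to -61 and the CHAC1 match at -209 to -202. The matches in ASNS, CHAC1, CARS1, SLC1A5 and SLC3A2 also fall in a noncoding part of an exon of the same gene in GENCODE 29, those in CEBPG and JDP2 in an intron, and that of ATF3 lies outside the gene. A second motif, the cAMP response element TGACGTCA, which reads the same on both strands, was in a window of 1 of the 30 genes, PPP1R15A, and of 2.25% of all genes.

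The comparison of TAX with control cells asks whether the treatment changed these genes. None of them passed the test, and the values of most members overlapped between the groups. Of the 36 genes, 35 reached 1 FPKM in 3 or more of the 6 libraries and were tested, on the log2(FPKM + 1) scale, which understates the change of genes with low FPKM. By limma with Benjamini-Hochberg adjustment over all 12359 tested genes, 0 of the 35 members had an adjusted p under 0.05 and 3 had an unadjusted p under 0.05. Among all tested genes, 39 (0.316%) were called higher and 20 (0.162%) lower, or 47 and 48 after quantile normalization, and 7.73% had an unadjusted p under 0.05 with a higher and 2.41% with a lower value. The smallest adjusted p of a member was 0.459. Of the 35 members, 33 had a log2 fold change above 0 (94.3%), as had 69.1% of all tested genes. Their median was 0.23, against 0.05 over all tested genes, a difference of 0.18. Leaving out single libraries moved this difference from 0.08 without TAX replicate 1 to 0.33 without TAX replicate 2 (0.32 without control replicate 2).

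**Figure D1:**
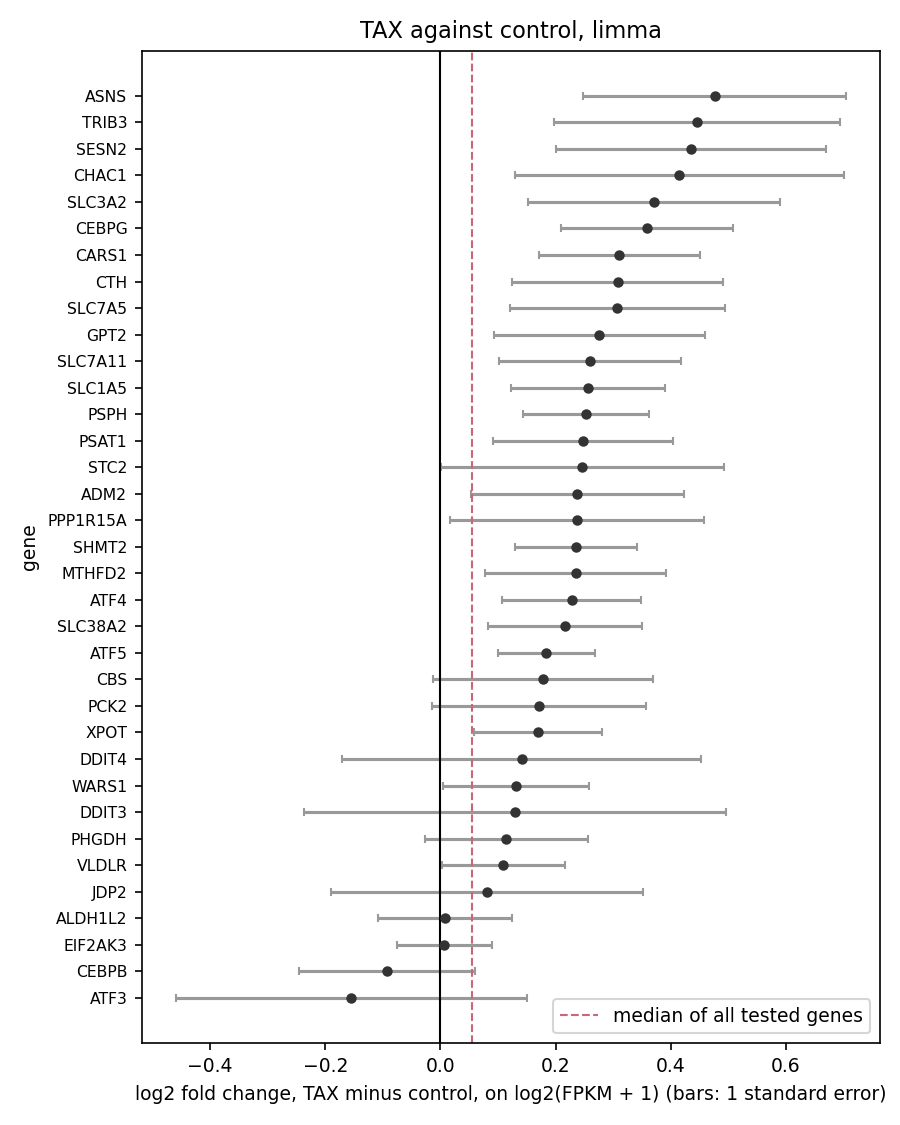
Log2 fold change (TAX minus control, on the log2(FPKM + 1) scale) of the 35 tested genes with 1 standard error from limma, sorted by size, the dashed line being the median of all tested genes. The points run from -0.15 for ATF3 to 0.48 for ASNS, and 0 of them had an adjusted p under 0.05.

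Among the transcription factors ATF4 itself, which GENCODE 29 (GRCh38) places at 39519695 to 39522685 of chromosome 22, was the most abundant. ATF4 had 200.001 FPKM in control replicate 1, 212 FPKM in control replicate 2 and 152 FPKM in control replicate 3, against 223, 211 and 221 FPKM in the TAX libraries in the same order. Its TAX values lay close together and its lowest value was that of control replicate 3, the library of low scale. By limma, ATF4 differed by 0.23 ± 0.12 on the log2 scale (standard error; adjusted p = 0.546). After each library was centred on its median, the 3 TAX values of ATF4 lay above the 3 control values, which they did not on the deposited scale. DDIT3 encodes CHOP, and the control libraries 1 to 3 held it at 26.9, 66.0 and 21.6 FPKM, while the TAX libraries 1 to 3 held it at 49.5, 23.4 and 44.0 FPKM. Each group thus held both high and low values of DDIT3, and its log2 fold change of 0.13 had a standard error of 0.37 (adjusted p = 0.919 from limma). Of the exon bases of DDIT3, 27.2% are shared with MARS1 on the opposite strand, and the strand setting of the counting is not known. ATF3, a stress-induced repressor of the same family, had 23.8, 44.0 and 16.6 FPKM in the control and 27.9, 15.7 and 28.5 FPKM in the TAX libraries. ATF3 was highest in control replicate 2 and lowest in TAX replicate 2, and its log2 fold change was -0.15 ± 0.31 (standard error; limma, adjusted p = 0.876), or 0.21 without control replicate 2. JDP2, which represses AP-1 sites, ran from 7.04 FPKM in TAX replicate 2 to 20.6 FPKM in TAX replicate 3, so that both extremes were TAX libraries, while the controls lay at 10.2, 12.9 and 11.6 FPKM and TAX replicate 1 at 12.4 FPKM. By limma its log2 fold change was 0.08 ± 0.27 (standard error; adjusted p = 0.932).

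CEBPG, a C/EBP partner of ATF4, had the smallest p of all members, with means of 32.6 ± 7.19 FPKM in the controls and 41.8 ± 6.22 FPKM under TAX (SD, n = 3 each), a log2 fold change of 0.36 and an adjusted p of 0.459 (limma). CEBPB, another partner, had 40.1 ± 8.08 and 37.4 ± 6.63 FPKM (SD, n = 3 each), a log2 fold change of -0.09. ATF5, a factor under similar translational control, had 5.01, 5.31 and 5.46 FPKM in control and 5.72, 5.92 and 6.72 FPKM in TAX libraries. These groups did not overlap on the deposited scale but did after quantile normalization and after median centring (adjusted p = 0.493 from limma), and 21.2% of the exon bases of ATF5 are shared with NUP62 on the opposite strand. NUPR1, a stress-induced chromatin protein, lay under the filter with 0.358, 0.585 and 0.237 FPKM in the control and 0.297, 0.146 and 0.307 FPKM in the TAX libraries, which overlapped (exact permutation test, two-sided p = 0.4, where 3 against 3 cannot give less than 0.1).

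**Figure D2:**
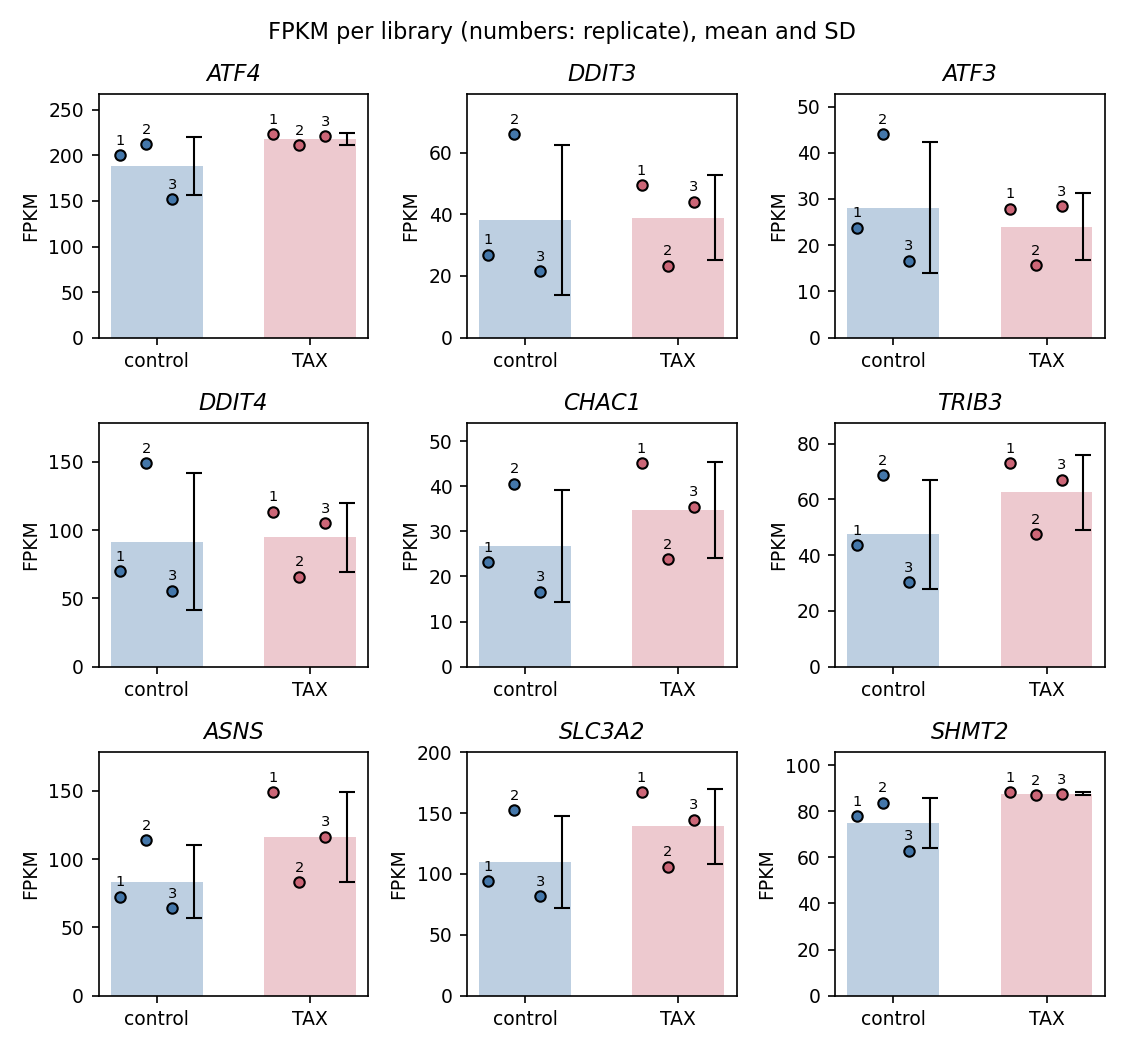
FPKM of 9 genes in each library (points, numbered by replicate), with the group mean (bar, from 0) and its SD (whisker). In DDIT3, ATF3, DDIT4, CHAC1, TRIB3, ASNS and SLC3A2, control replicate 2 and TAX replicates 1 and 3 all lie above the other libraries. In ATF3, control replicate 2, at 44.0 FPKM, stands well above TAX replicates 1 and 3, at 27.9 and 28.5 FPKM. In SHMT2 the 3 TAX points lie above the 3 control points.

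The feedback and signaling genes, apart from EIF2AK3, varied widely between libraries. CHAC1, which degrades glutathione, was at 23.2, 40.6 and 16.6 FPKM in the controls and had 45.1, 23.8 and 35.5 FPKM in the TAX libraries. For TRIB3, a pseudokinase that restrains ATF4, the values were 43.5, 68.7 and 30.2 FPKM in control and 73.0, 47.5 and 67.1 FPKM in TAX-treated cells. SESN2, an inhibitor of mTORC1 that senses leucine, had 11.2, 16.6 and 7.38 FPKM and 18.0, 11.7 and 17.4 FPKM in the same order. In these 3 genes TAX replicate 2 lay just above control replicate 1 and further above control replicate 3, and control replicate 2 lay beside TAX replicates 1 and 3. Their log2 fold changes were 0.41, 0.45 and 0.44 with standard errors of 0.29, 0.25 and 0.23 (adjusted p from 0.552 to 0.643, limma). Without control replicate 3 they were 0.13, 0.17 and 0.17, and without control replicate 2 they were 0.75, 0.75 and 0.70. DDIT4, also an inhibitor of mTORC1, showed 70.1, 149 and 55.7 FPKM in control and 113, 65.8 and 105 FPKM in TAX libraries. PPP1R15A, the GADD34 subunit that directs a phosphatase to eIF2 and so ends the response, had 24.7, 37.7 and 18.0 FPKM and 36.5, 24.7 and 31.2 FPKM. Of the exon bases of DDIT4, 41.2% are shared with DDIT4-AS1 on the opposite strand. Both genes were highest in control replicate 2, with log2 fold changes of 0.14 and 0.24 (adjusted p = 0.892 and 0.725 from limma). EIF2AK3, the PERK kinase that senses unfolded proteins and stands upstream of ATF4, was nearly flat at 5.01, 5.31 and 4.55 FPKM in control and 4.90, 4.81 and 5.23 FPKM in TAX libraries, and its log2 fold change of 0.01 ± 0.08 (standard error; limma, adjusted p = 0.980) was below 0 after quantile normalization and median centring.

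Among the enzymes of amino acid metabolism ASNS, the asparagine synthetase, on chromosome 7 from 97852118 to 97872542, had a log2 fold change that ran from 0.28 without TAX replicate 1 to 0.72 without control replicate 2. ASNS was at 72.6, 114 and 63.9 FPKM in the controls, by replicate number, and reached 149, 82.9 and 116 FPKM in the TAX libraries. Control replicate 2 was close to TAX replicate 3, and TAX replicate 2 lay below both, so the groups overlapped and the log2 fold change of 0.48 had a standard error of 0.23 (adjusted p = 0.508 from limma). Of the exon bases of ASNS, 44.6% are shared with AC079781.5 on the same strand. CTH, which makes cysteine from cystathionine, had 4.70, 6.87 and 3.91 FPKM in the control and 8.55, 5.25 and 5.997 FPKM in the TAX libraries (log2 fold change 0.31, adjusted p = 0.590 from limma). CBS, GPT2 and PCK2, for cystathionine synthesis, mitochondrial alanine transamination and mitochondrial phosphoenolpyruvate synthesis, had means of 13.2 to 21.6 FPKM in control and 14.9 to 25.9 FPKM in TAX-treated cells. CBS has a near-identical copy in the tables, CBSL, at up to 16.4 FPKM, so the division of reads between them is uncertain.

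PHGDH, PSAT1 and PSPH carry out the successive steps of serine synthesis. PSAT1 had the highest FPKM of all members, 251 ± 50.9 in the controls and 297 ± 50.2 under TAX (SD, n = 3 each), PHGDH had 81.0 ± 15.9 and 87.0 ± 10.7 FPKM, and PSPH had 29.3 ± 4.06 and 34.997 ± 3.23 FPKM. The log2 fold changes of these 3 genes were 0.25, 0.11 and 0.25, with adjusted p from 0.475 to 0.795 (limma). In the mitochondrial one-carbon steps that follow, SHMT2, which splits serine, was at 77.9, 83.7 and 62.8 FPKM in control and at 88.2, 87.1 and 87.5 FPKM in TAX libraries. Every TAX value of SHMT2 lay above every control value, and this held after quantile normalization and median centring, but the difference was not past the threshold (limma, log2 fold change 0.23 ± 0.11, standard error; adjusted p = 0.492). SHMT2 and ATF5 were the only 2 of 35 tested members (5.71%) without overlap in this direction on the deposited scale, where 14.6% of all tested genes had none, and in the other direction 0 members had none, beside 3.34% of all tested genes. MTHFD2, which acts after SHMT2, had 98.1 ± 20.3 and 115 ± 20.5 FPKM, while ALDH1L2, which removes one-carbon units in the mitochondrion, was the lowest of the tested members at 1.48 ± 0.155 and 1.51 ± 0.388 FPKM (SD, n = 3 each).

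Of the 5 amino acid transporters, SLC3A2, the heavy chain that carries SLC7A5 and SLC7A11 to the cell surface, had 94.2, 152 and 81.7 FPKM in control and 167, 106 and 144 FPKM in TAX libraries, so control replicate 2 lay between the TAX values. By limma SLC3A2 differed by 0.37 ± 0.22 on the log2 scale (standard error; adjusted p = 0.587). Its light chains SLC7A5, which imports leucine, and SLC7A11, which imports cystine, had log2 fold changes of 0.31 and 0.26, and SLC1A5 and SLC38A2, which import glutamine and other neutral amino acids, of 0.26 and 0.22. The adjusted p of these 4 genes lay between 0.543 and 0.605 (limma). SLC38A2 had the highest FPKM of the 5, with 192 ± 33.6 in the controls and 222 ± 27.6 under TAX (SD, n = 3 each). CARS1 and WARS1, which charge the tRNAs of cysteine and tryptophan, and XPOT, which exports tRNAs from the nucleus, had log2 fold changes of 0.31, 0.13 and 0.17 (adjusted p from 0.490 to 0.739, limma). With CEBPG and PSPH, CARS1 was the third member with an unadjusted p under 0.05. Of the secreted and surface proteins, the glycoprotein hormone STC2 had 68.2, 104 and 52.2 FPKM in control and 103, 60.1 and 99.8 FPKM in TAX libraries, again with the second library of each group on the side of the other group (log2 fold change 0.25, adjusted p = 0.750 from limma). The peptide hormone ADM2 and the lipoprotein receptor VLDLR had log2 fold changes of 0.24 and 0.11.

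For 31 of the 35 tested members (88.6%), control replicate 2 and TAX replicates 1 and 3 all lay above control replicates 1 and 3 and TAX replicate 2. The same held for 13.0% of all 12359 tested genes, and the opposite order held for 0 members and 3.66% of all tested genes. This arrangement cuts across the labels and was taken from these values, so it is a description with no test, and the libraries on either side are not replicates of a condition. After quantile normalization the order held for 29 of 35 members and 9.52% of all tested genes, and after median centring for 28 of 35 and 7.95%. The genes that left it were VLDLR and JDP2 in both and ATF4 in the second only. By role, it included all 5 other enzymes of amino acid and carbon metabolism, all 5 transporters, all 3 genes of tRNA charging and export and all 3 secreted and surface proteins, 5 of the 6 genes of serine and one-carbon synthesis, 5 of the 6 feedback and signaling genes and 5 of the 7 tested transcription factors, on the deposited scale. The 4 tested members outside it were ATF5, CEBPB, SHMT2 and EIF2AK3.

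**Figure D3:**
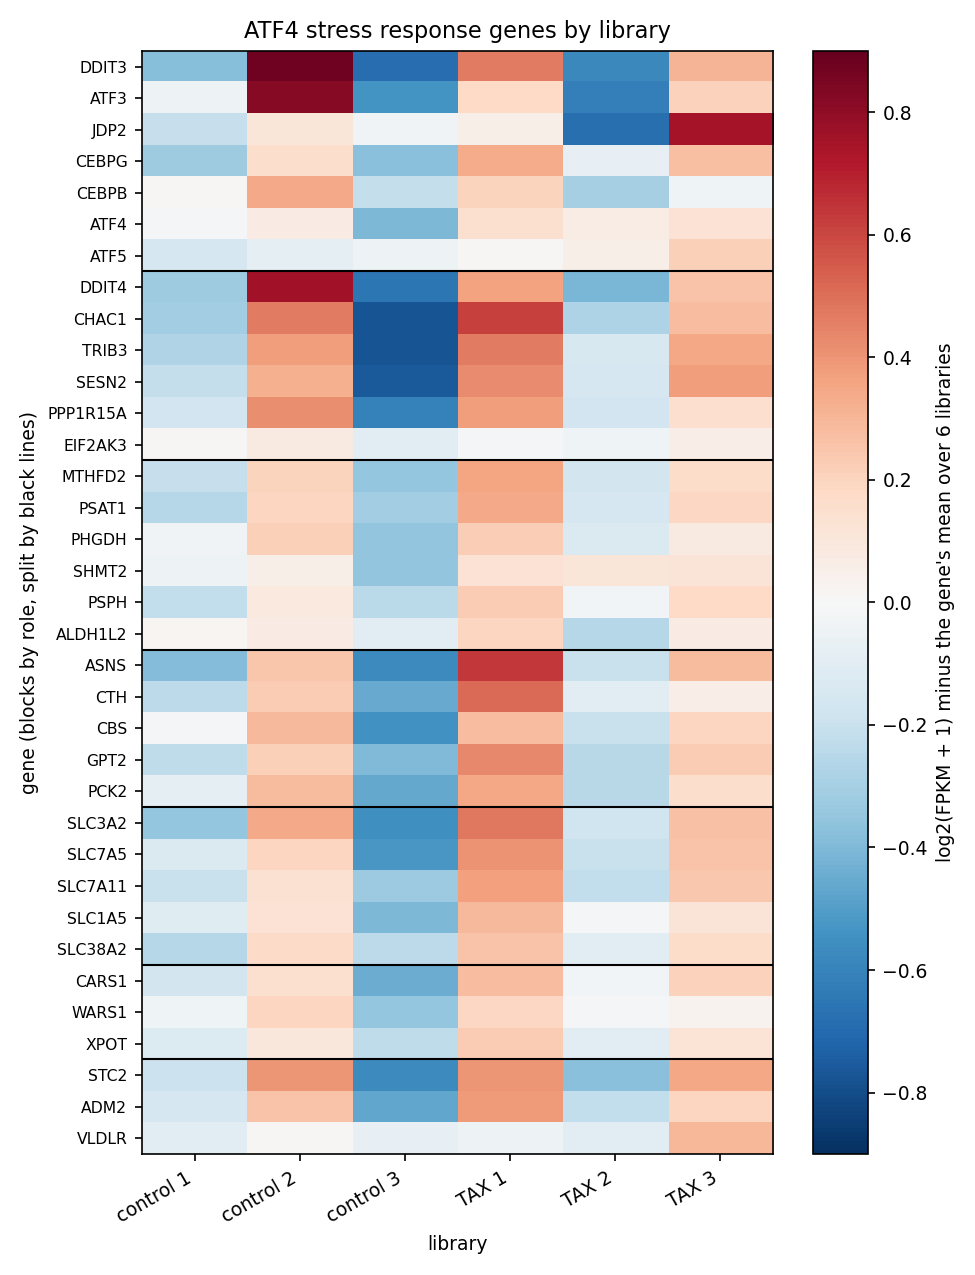
Each of the 35 tested genes (rows, in blocks by role) in each library (columns), colored by log2(FPKM + 1) minus the mean of the gene over the 6 libraries. The columns of control 2, TAX 1 and TAX 3 are red and those of control 1, control 3 and TAX 2 blue for most rows, while EIF2AK3 and ATF5 are pale throughout.

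The distance between both sides differed between members. The ratio of the lowest FPKM among control replicate 2 and TAX replicates 1 and 3 to the highest among the other 3 libraries had a median of 1.198 over the 31 genes. It was largest for DDIT3 at 1.64, followed by DDIT4 at 1.501 and CHAC1 at 1.49, and smallest for ATF4 at 1.01. The members outside the order had ratios of 0.978 for EIF2AK3, 0.966 for CEBPB, 0.961 for SHMT2 and 0.897 for ATF5. Between the highest and the lowest library DDIT3 differed 3.05-fold, JDP2 2.92-fold, ATF3 2.81-fold, CHAC1 2.72-fold and DDIT4 2.68-fold, and EIF2AK3, the kinase upstream of ATF4, least of the tested members at 1.17-fold. ATF4 differed 1.47-fold between its highest and lowest library. In bulk RNA, more RNA per cell and a larger share of responding cells cannot be told apart.

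Within the order, the members also differed in which library was extreme. TAX replicate 1 was the highest library for 23 of the 35 tested members (65.7%) and for 16.2% of all tested genes. These 23 included ASNS, CHAC1, TRIB3, SESN2, CTH and the 5 transporters. Control replicate 2 was the highest for 9 members (25.7%, against 19.4% of all tested genes), which were ATF3, DDIT3, DDIT4, PPP1R15A, CEBPB, EIF2AK3, STC2, CBS and WARS1. For JDP2, VLDLR and ATF5 it was TAX replicate 3. No tested member had its highest value in control replicate 1, control replicate 3 or TAX replicate 2, which were highest for 21.7%, 3.8% and 24.7% of all tested genes. In the 31 members with the order this follows from the order itself, which allows only control replicate 2 or TAX replicates 1 and 3 to be highest. The lowest value was in control replicate 3 for 28 members (80.0%), beside 58.0% of all tested genes, and in TAX replicate 2 for ATF3, CEBPB, JDP2 and ALDH1L2. Among the 31 genes that share the order, TAX replicate 2 lay above both control replicates 1 and 3 in 16, between them in 12 and below both in 3. Control replicate 2 lay below both TAX replicates 1 and 3 in 10 of the 31, between them in 14 and above both in 7.

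Genes of the same pathway that are not members were described in the same way from lists of neighbouring functions. These lists were chosen with earlier results of these libraries known, so their shares are a description and not an independent check of the order. Of 30 other ATF4 targets 26 were tested, and 21 of these (80.8%) had the order of libraries of the members, 20 after quantile normalization or median centring. Among all tested genes the share with this order was 13.0%, or 9.52% and 7.95% after these scalings. On the deposited scale they included every tRNA synthetase gene of the list, such as AARS1, TARS1 and GARS1, the cationic amino acid transporter SLC7A1, the proline synthesis enzyme PYCR1 and HERPUD1, a component of protein degradation at the endoplasmic reticulum. The exceptions on the deposited scale were ALDH18A1, SHMT1, SESN1, SESN3 and BEX2. For TAX against control 24 of the 26 (92.3%) had a log2 fold change above 0, beside 69.1% of all tested genes. By limma 0 of the 26 were called, with 2 at an unadjusted p under 0.05. Of 20 genes of the other eIF2 kinases, eIF2, its exchange factor eIF2B and their regulators, 4 had the order, which were EIF2S2, EIF2S3, PPP1R15B and PPP1CB, or 3 of 20 after either scaling. EIF2AK1, EIF2AK2 and EIF2AK4, the kinases that respond to haem shortage, double-stranded RNA and missing amino acids, were not among them. In 5 of the 20 genes (25.0%) all TAX values lay above all control values, beside 14.6% of all tested genes. Among these was EIF2AK4, at 36.5, 37.5 and 32.4 FPKM in control and 38.7, 39.3 and 41.1 FPKM in TAX libraries. In 1 gene, EIF2AK2, the TAX values all lay below, beside 3.34% of all tested genes. After quantile normalization 4 lay above and 3 below, and after median centring 4 and 2, beside 9.74% and 9.14% of all tested genes above. The share of all tested genes below was not counted after these scalings, so the genes below cannot be set against it. Of 17 genes of the XBP1 and ATF6 branches, the other arms of the unfolded protein response, 5 (29.4%) had the order, or 4 after median centring. The opposite order held for 1, MANF (5.88%), and for 3.66% of all tested genes. The 5 with the order were XBP1, its activating nuclease ERN1, ATF6, EDEM1 and the chaperone HSPA5. HSPA5 was at 358, 433 and 317 FPKM in control and 409, 367 and 392 FPKM in TAX libraries. Most chaperones and disulfide isomerases of the list, such as HSP90B1, PDIA4 and HYOU1, did not have the order. Of the 17 genes, 1 had all TAX values above all control values and 1 had them below, beside 14.6% and 3.34% of all tested genes. After quantile normalization 1 lay above and 3 below, and after median centring 1 and 4. Here too the share of all tested genes below is missing for these scalings. In each of these lists 0 genes were called by limma, with 1 eIF2-related gene and 0 of the XBP1 and ATF6 genes at an unadjusted p under 0.05.

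**Figure D4:**
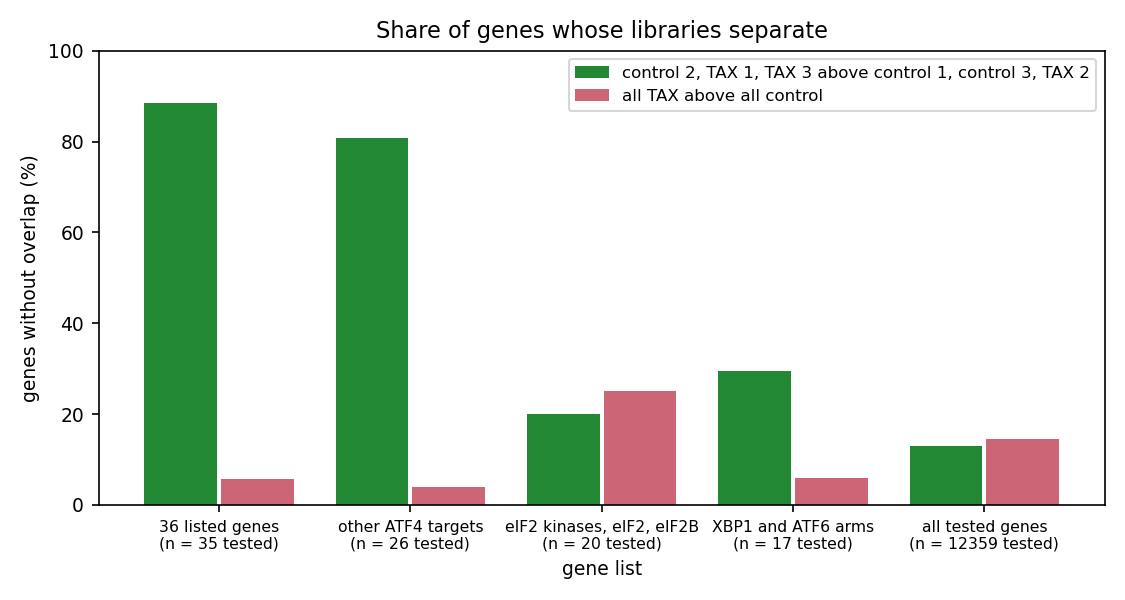
Percent of tested genes in which control 2, TAX 1 and TAX 3 lie above control 1, control 3 and TAX 2 (green), and in which all TAX lie above all control libraries (red), by gene list. The green bar is 88.6% for the listed genes and 80.8% for other ATF4 targets, beside 13.0% of all tested genes. In the same order, the red bars are 5.71%, 3.85% and 14.6%. The share with all TAX above all control libraries is 25.0% in the eIF2-related list, above that of all tested genes. It is 5.88% in the list of the XBP1 and ATF6 branches. The lists and the order were chosen with earlier results of these libraries known.

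One feature of the libraries outside the pathway ran the opposite way. The 13 mitochondrially encoded mRNAs took 15.8%, 14.2% and 12.01% of the summed FPKM in control replicates 1 and 3 and TAX replicate 2, and 11.2%, 11.6% and 11.2% in control replicate 2 and TAX replicates 1 and 3. For 7 of the 13 genes (53.8%) all libraries of the first set were above all of the second, and for 0 the reverse. Of all tested genes, 3.66% had this order and 13.0% the reverse on the deposited scale. The count for the mitochondrial genes was 1 of 13 after quantile normalization and 10 of 13 after median centring. The share of all tested genes with the order of the mitochondrial genes was not counted after these scalings. The part of the mitochondrial mRNAs in the order of the stress response genes was not tested. The median log2(FPKM + 1) of all tested genes ran the same way as the order, at 3.454, 3.458 and 3.448 in control replicate 2 and TAX replicates 1 and 3 and at 3.438, 3.283 and 3.443 in control replicates 1 and 3 and TAX replicate 2. After these medians were made equal, the order held for 28 of the 35 tested members and for 7.95% of all tested genes. The part of the library medians in the order was not tested. The number of genes listed at 0 did not separate both sides, with 4053, 4411 and 4798 in the first 3 libraries and 4640, 3997 and 4172 in the others. Labels give no date, lane, passage or cell density for any library, so none of these could be compared with the order.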

How the data were processed

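RNA was isolated with Trizol from 3 control and 3 TAX-treated samples. The values deposited by the authors, in a separate table for each library, were taken as FPKM because the values are decimals whose sums differ and 3130 identifiers carry the StringTie prefix MSTRG. The submitters' processing notes name HISAT2 2.2.0, StringTie 2.1.2 and GRCh38. Annotation, strand setting and filters are not given in the sources used here. Depth is unknown, so no counting interval is given. Genes that reached 1 FPKM in 3 or more of 6 libraries were fitted on log2(FPKM + 1) with limma 3.58.1 (R 4.3.3, eBayes with trend), tested on simulated data, with Benjamini-Hochberg adjustment over all tested genes. The members, lists and the order of libraries were chosen with earlier results of these data known. By rule, values in every library are given for the 12 members with the largest gap between libraries and for ATF4, ATF3, DDIT3, EIF2AK3, PPP1R15A and ASNS, 14 genes in all. They are also given for SHMT2, ATF5 and NUPR1, which this rule did not choose. Any member with an adjusted p under 0.05 was to be added, and up to 3 such genes of each other list were to be named, but there were none on the deposited scale. Other genes were named after their values were seen. Alternatives were a pseudocount of 0.1, a filter of 0.1 FPKM or none, quantile normalization, median centring, no trend, a replicate block and leaving out each library. Some marker genes are not reported here.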

Additional observations from a re-analysis of the deposited data

How the results depend on the processing

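The number of members called by limma stayed at 0 in all 13 alternatives, and the difference between the median of the members and of all tested genes stayed above 0. Without single libraries it lay between 0.08 and 0.33. Over the whole table, the numbers called higher and lower were 25 and 12 with the filter of 0.1 FPKM, 0 and 1 with no filter, 13 and 13 with the replicate block, and 9 to 28 and 8 to 15 without single libraries. Quantile normalization and median centring gave 48 and 50 lower. The members with all TAX above all control libraries numbered 1 after quantile normalization and 2 to 18 without single libraries, 18 without control replicate 2 (26.2% of all tested genes) and 12 without TAX replicate 2 (20.7%). Members with a negative change numbered 4 after median centring and 0 to 11 without single libraries, 11 without control replicate 3. The change of EIF2AK3 was -0.028 after quantile normalization and -0.051 after median centring. Without single libraries the log2 change ran from -0.46 to 0.21 for ATF3, -0.18 to 0.60 for DDIT3, -0.15 to 0.55 for DDIT4, -0.27 to 0.44 for JDP2, -0.0059 to 0.51 for PPP1R15A and -0.043 to 0.049 for EIF2AK3. The other 8 of the 14 genes chosen by rule kept their direction. ASNS ran from 0.28 to 0.72, CHAC1 from 0.13 to 0.75, TRIB3 from 0.17 to 0.75 and SESN2 from 0.17 to 0.70. SLC3A2 ran from 0.19 to 0.63, STC2 from 0.02 to 0.51, CTH from 0.13 to 0.50 and ATF4 from 0.08 to 0.32. These 8 were highest without control replicate 2 and lowest without control replicate 3, or for ASNS and CTH without TAX replicate 1. The causes were not tested. Deviations of same-numbered libraries from their group means correlated at -0.12, -0.33 and -0.17 across all tested genes. Those of control replicate 2 correlated at 0.28 with TAX replicate 1 and at 0.11 with TAX replicate 3. Those of TAX replicate 2 correlated at 0.04 with control replicate 1 and at 0.29 with control replicate 3. The values of same-numbered libraries cannot settle whether those samples were handled together. The replicate block changed no call of a member. Depth in reads is unknown, which limits NUPR1 and ALDH1L2 most.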
